A study of Mus musculus with 7 samples.

Results

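The 10 markers of upper-layer and intratelencephalic cortical neurons were followed across the RNA-seq libraries of the series. They were taken by gene symbol, as 10 genes of the 55367 in the count table, and all 10 passed the filter on low counts. The 7 assigned to upper layers were Cux1, Cux2, Lamp5, Calb1, Rasgrf2, Pou3f2 and Rorb, and the 3 assigned to intratelencephalic neurons of layer 5 were Deptor, Tox2 and Tcerg1l.

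The study compared 3 libraries labelled noCRS with 4 libraries labelled CRS, and its title places the contrast under chronic stress and depression. Every library is labelled as brain of C57BL/6J mice at P90, and as total RNA of neurons that run from the medial prefrontal cortex (mPFC) to the lateral habenula (LHB). The treatment label is the only stated difference between the groups. The labels do not say how the neurons were marked and collected, nor do they tie libraries to animals. All p-values below therefore reflect library-to-library spread, which may be technical.

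Intratelencephalic neurons are cortical pyramidal cells whose axons stay within the cortex and striatum, and they make up most of the upper layers and part of layers 5 and 6. Neurons that leave the telencephalon, as an axon to the habenula does, sit mainly in layers 5 and 6 and carry other markers. None of the 10 genes is exclusive to intratelencephalic cells: Lamp5 and Calb1 are also interneuron markers, and Rorb and Pou3f2 are also known from glia or their precursors.

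Between noCRS and CRS, none of the 10 markers changed by edgeR's quasi-likelihood test at an adjusted p of 0.05, against 2.30% of the 17833 tested genes (2.07% higher and 0.230% lower). In none were the groups free of overlap, a property of 16.9% of tested genes. At an unadjusted p of 0.05, 2 of 10 passed, Deptor and Tcerg1l, against 13.6% of tested genes. DESeq2 called 1 of 10, Tcerg1l (adjusted p = 0.0465), against 9.14% of the 17849 genes to which it gave an adjusted p. Throughout, the DESeq2 share is over those genes, whereas its list counts are over all list genes it fitted. Tcerg1l had no count in noCRS and passed the filter only through CRS, so it had to differ and its p-values support nothing. Limma-voom called 0 against 3.58% of tested genes, and 3 of 10 had an unadjusted p below 0.05 against 18.3%. Of the fitted log2 fold changes 5 were above 0 and 5 below, with a median of 0.17 beside -0.02 over all tested genes. The median was -0.09 over the 9 markers other than Tcerg1l. Over the markers that could be tested, the median ran from -0.55 to 0.66 as libraries were left out. The first value was without CRS replicate 4, where Tcerg1l was not tested, and the second without noCRS replicate 1, where it was.

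The library totals ran from 28677703 to 39965667 counts, so that 3 counts in 1 library stood for 0.0724 to 0.0990 counts-per-million (CPM). Correlations of log2 CPM between pairs of libraries were 0.714 to 0.872. At least 1 library was at 0 counts for 26.7% of tested genes and for 4 of the 10 markers. The labelled neurons were checked against excitatory markers, 8 genes whose summed level was 18.9 to 38.9 CPM in noCRS and 486 to 727 CPM in CRS. Slc17a7, the vesicular glutamate transporter of cortical pyramidal cells, had 0 counts in noCRS replicates 2 and 3. Transcripts of oligodendrocytes were abundant in both groups, at 31568 to 36472 CPM summed over 7 markers in noCRS and 25922 to 51114 CPM in CRS. In bulk libraries, fewer cells of a type and less RNA per cell cannot be told apart.

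**Figure D1:**
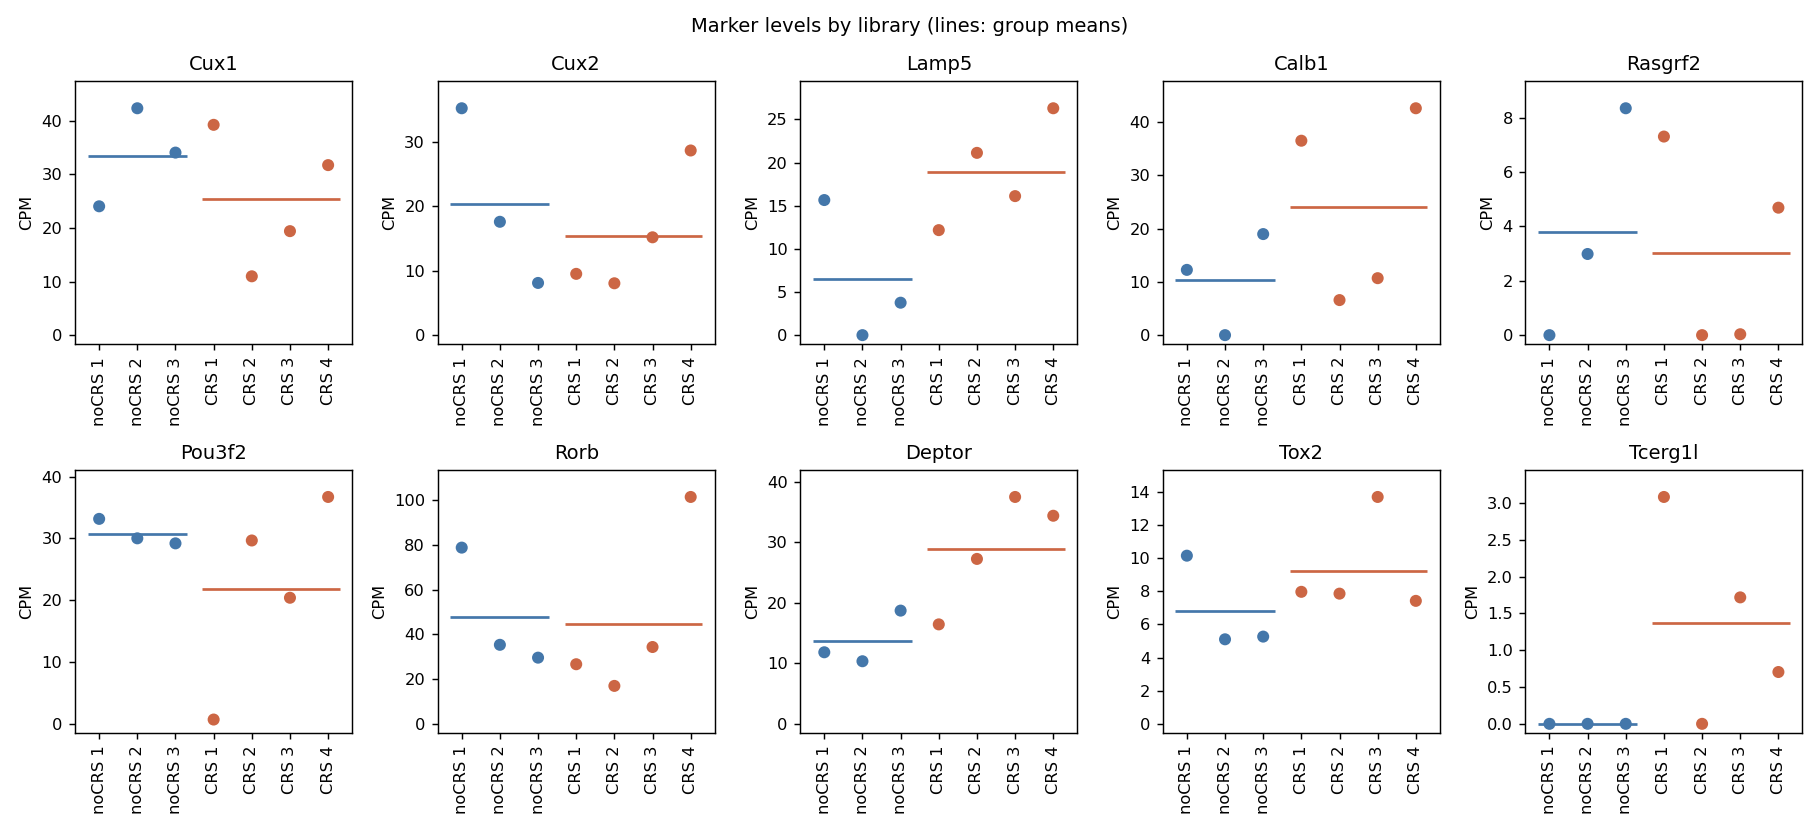
Level of each of the 10 markers (CPM, y axis from 0) in the 3 noCRS (blue) and 4 CRS (red) libraries; horizontal lines are group means. The groups overlap in every panel, and Lamp5, Calb1, Rasgrf2 and Tcerg1l have libraries at 0.

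Several of the markers belong to families whose coding sequences could in principle share reads. The closest such pairs are shown with the longest stretch that is identical in both coding sequences in capitals and 12 bases on either side in lower case, from GENCODE M21 transcripts (GRCm38), 5′ to 3′. These are the pair of cut-homeobox genes and the POU-domain gene Pou3f2 with its relative Pou3f3.
Cux1: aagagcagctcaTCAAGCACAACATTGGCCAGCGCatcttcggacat
Cux2: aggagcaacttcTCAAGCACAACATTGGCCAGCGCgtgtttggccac
Pou3f2: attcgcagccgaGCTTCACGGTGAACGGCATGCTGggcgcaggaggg
Pou3f3: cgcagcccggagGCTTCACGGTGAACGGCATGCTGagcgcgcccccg
In both pairs the identical stretch was 23 bases. It was 21 bases between Rasgrf2 and Rasgrf1, 20 between Rorb and Rora, 20 between Tox2 and Tox, and 12 between Calb1 and Calb2. Of all 50-base words in the transcripts of the 10 genes, the share also found in a transcript of another gene was 3.78% for Deptor, 1.97% for Cux1 and at most 0.56% for the others. The overlaps of Deptor and Cux1 were mainly with 1 gene each on the other strand, Gm9920 over 3.41% of the exon length of Deptor and Gm16599 over 1.97% of that of Cux1. The library kit does not mark strand, so those bases cannot be assigned to 1 gene.

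Cux1 and Cux2 are homeobox transcription factors that mark neurons of layers 2 to 4 and shape their dendrites, and Cux1 is also expressed widely outside neurons. Cux1 (chromosome 5, 136248135 to 136567490) measured 24.0, 42.3 and 34.1 CPM in noCRS replicates 1 to 3 and 39.3, 11.0, 19.4 and 31.7 CPM in CRS replicates 1 to 4. The highest library was in noCRS and the lowest 2 were in CRS, but CRS replicate 1 lay above 2 of the noCRS libraries. The group means were 33.5 ± 9.16 CPM (SD, n = 3) and 25.3 ± 12.6 CPM (SD, n = 4), a log2 fold change of -0.40 with an approximate 95% interval of -1.45 to 0.65 (edgeR adjusted p = 0.844).

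Cux2 (chromosome 5, 121856366 to 122050102) measured 35.2, 17.6 and 8.10 CPM in noCRS and 9.51, 8.05, 15.2 and 28.7 CPM in CRS. Each group held 1 library well above its others, noCRS replicate 1 and CRS replicate 4, and the lowest values of both groups were about equal. The log2 fold change was -0.40 with an interval of -1.86 to 1.06 (edgeR adjusted p = 0.894), and its sign turned to 0.27 without noCRS replicate 1. Cux2 was detected by 548 and 263 counts in noCRS replicates 2 and 3, the libraries with no Slc17a7 count.

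The balance within the pair varied more between libraries than between groups. Cux2 made up 59.4%, 29.4% and 19.2% of the counts of both genes in noCRS replicates 1 to 3, and 19.5%, 42.3%, 43.9% and 47.5% in CRS replicates 1 to 4. Exact 95% binomial (Clopper-Pearson) intervals, which cover counting error only, were widest in CRS replicate 2 (38.3% to 46.3%). Within noCRS the 3 intervals did not overlap. The group means were 36.0% ± 20.9 (SD, n = 3) and 38.3% ± 12.7 (SD, n = 4), with p = 0.80 by an exact two-sided permutation test, which cannot go below 0.0571 for 3 against 4 libraries.

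**Figure D2:**
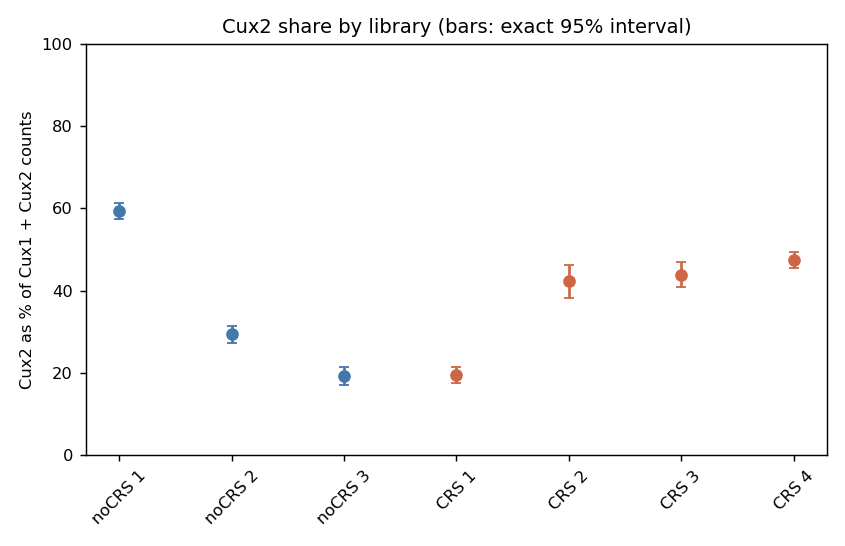
Cux2 counts as a percentage of Cux1 plus Cux2 counts in each noCRS (blue) and CRS (red) library, with exact 95% binomial intervals. The share runs from 19.2% (noCRS replicate 3) to 59.4% (noCRS replicate 1), and the 4 CRS libraries lie inside that range.

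Rorb encodes a nuclear receptor that marks layer 4 and some layer 5 neurons and is also expressed by astrocytes. It lies on chromosome 19 (18930605 to 19111196) and measured 78.8, 35.4 and 29.6 CPM in noCRS and 26.7, 17.0, 34.4 and 101 CPM in CRS. Its highest libraries were CRS replicate 4 and noCRS replicate 1, well above the others of their groups. The log2 fold change was -0.09 with an interval of -1.53 to 1.34 (edgeR adjusted p = 0.979), and its sign turned to 0.48 without noCRS replicate 1, to 0.09 without CRS replicate 1 and to 0.16 without CRS replicate 2. The CRS mean fell from 44.9 to 26.0 CPM without CRS replicate 4, and the noCRS mean from 47.9 to 32.5 CPM without noCRS replicate 1.

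The same 2 libraries held the highest summed level of 10 astrocyte markers. That sum was 14112, 11212 and 10810 CPM in noCRS and 7497, 6719, 6364 and 12984 CPM in CRS. These 2 libraries also had the highest total counts, 39965667 in noCRS replicate 1 and 39740623 in CRS replicate 4. The part of astrocyte RNA or of depth in the level of Rorb was not tested. Within noCRS, the order of the libraries by Rorb was that by the astrocyte sum, whereas in CRS replicate 3 Rorb was second highest of the group and the astrocyte sum lowest.

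Pou3f2, also called Brn2, encodes a POU-domain factor of upper-layer neurons and of neural precursors, and is a gene of 1 exon (chromosome 4, 22482780 to 22488366). It was the steadiest marker within noCRS, at 33.2, 30.0 and 29.2 CPM. In CRS it measured 0.695, 29.7, 20.4 and 36.7 CPM. CRS replicate 1, with 23 counts, stood apart from libraries that held 618 to 1409 counts. The log2 fold change of -0.49 (interval -2.57 to 1.58, edgeR adjusted p = 0.909) came to -0.09 without that library, and the CRS mean to 28.9 CPM. The same library, CRS replicate 1, held the second highest Cux1 and Calb1 levels of the 7 libraries.

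Lamp5, a membrane protein of the LAMP family found in upper-layer pyramidal cells and in neurogliaform interneurons, lies on chromosome 2 (136052239 to 136069917). It measured 15.7, 0 and 3.76 CPM in noCRS and 12.2, 21.1, 16.1 and 26.3 CPM in CRS. Of the CRS libraries 3 lay above every noCRS library, while CRS replicate 1 lay below noCRS replicate 1. The means were 6.47 ± 8.17 CPM (SD, n = 3) and 18.9 ± 6.13 CPM (SD, n = 4), a log2 fold change of 1.55 with an interval of -1.63 to 4.72 (edgeR adjusted p = 0.776). Leaving out noCRS replicate 1 brought that group's mean to 1.88 CPM and the log2 fold change to 3.34, and limma-voom gave 5.79. The adjusted p over all alternatives was at least 0.155.

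Calb1 encodes the calcium buffer calbindin, present in layer 2/3 pyramidal cells and in some interneurons (chromosome 4, 15881264 to 15908064). It measured 12.3, 0 and 19.0 CPM in noCRS and 36.5, 6.58, 10.7 and 42.6 CPM in CRS. The CRS libraries fell into a high and a low pair, with all 3 noCRS libraries below the high pair. The log2 fold change was 1.21 with an interval of -2.06 to 4.48 (edgeR adjusted p = 0.851). It was 0.63 without noCRS replicate 2, 1.98 without noCRS replicate 3 and 5.47 with limma-voom, and the lowest adjusted p of any alternative was 0.313. A count of 0 in noCRS replicate 2 for both Lamp5 and Calb1 allows up to 0.0963 CPM at that depth.

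Because Lamp5 and Calb1 also mark interneurons, the inhibitory list is set beside them. Its 12 genes summed to 126, 115 and 116 CPM in noCRS and to 237, 939, 317 and 368 CPM in CRS, without overlap. Sst alone gave 398 CPM of the sum in CRS replicate 2. Of the 10 genes tested 9 were fitted higher in CRS, while Adarb2 was fitted lower (45.5 ± 14.3 against 20.5 ± 9.12 CPM, SD, n = 3 and 4, edgeR adjusted p = 0.240). Slc32a1, the vesicular GABA transporter, did not pass the filter, with 0 counts in all noCRS libraries and in CRS replicates 1 and 2. CRS replicate 2, highest by the inhibitory sum, was second by Lamp5 and lowest of its group by Calb1. The part of interneuron RNA in either level was not tested.

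Rasgrf2 encodes an exchange factor for Ras and Rac used as a marker of layer 2/3 (chromosome 13, 91880400 to 92131656). It measured 0, 2.99 and 8.35 CPM in noCRS and 7.31, 0, 0.033 and 4.69 CPM in CRS. Each group held libraries with 93 to 271 counts and libraries with 0 or 1 count. The log2 fold change of -0.33 had the widest interval of the upper-layer genes, -5.43 to 4.77 (edgeR adjusted p = 0.980). Its sign turned to 1.01 when noCRS replicate 3 was left out, to 0.07 when CRS replicate 2 was, and to 0.06 when CRS replicate 3 was.

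Deptor, an inhibitory partner of the mTOR kinase, is expressed in layer 5 intratelencephalic neurons and in other brain cells (chromosome 15, 55112317 to 55259271). It measured 11.8, 10.3 and 18.7 CPM in noCRS and 16.4, 27.2, 37.5 and 34.4 CPM in CRS. Of the CRS libraries 3 lay above every noCRS library, and CRS replicate 1 lay below noCRS replicate 3. The means were 13.6 ± 4.46 CPM (SD, n = 3) and 28.9 ± 9.34 CPM (SD, n = 4), a log2 fold change of 1.08 ± 0.43 (approximate SE) with an interval of 0.11 to 2.06. The unadjusted p was 0.0329 and the edgeR adjusted p 0.294. Deptor did not pass in any alternative, with a smallest adjusted p of 0.0796 by DESeq2.

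Tox2 encodes an HMG-box nuclear protein (chromosome 2, 163203125 to 163324170). It measured 10.2, 5.11 and 5.27 CPM in noCRS and 7.97, 7.86, 13.7 and 7.43 CPM in CRS. It had the smallest ratio of the highest to the lowest library among the 10 markers, 2.68. The log2 fold change was 0.43 with an interval of -0.95 to 1.81 (edgeR adjusted p = 0.876).

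Tcerg1l lies on chromosome 7 (138208974 to 138397730). It had 0 counts in all 3 noCRS libraries and 102, 0, 52 and 27 counts in CRS, or 3.08, 0, 1.72 and 0.704 CPM. CRS replicate 2 was thus as low as noCRS, and the detection in CRS rested on 181 counts in 3 libraries. Against a floor of 3 counts over the noCRS group (0.0286 CPM), the CRS mean of 1.38 CPM was at least 48.2-fold higher, a bound on counts and not on the spread between libraries. Without CRS replicate 1 the bound was 28.3-fold. The adjusted p was 0.208 with edgeR and 0.0465 (DESeq2) to 0.490 over the alternatives that could test it, for a gene that entered the test only through CRS.

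**Figure D3:**
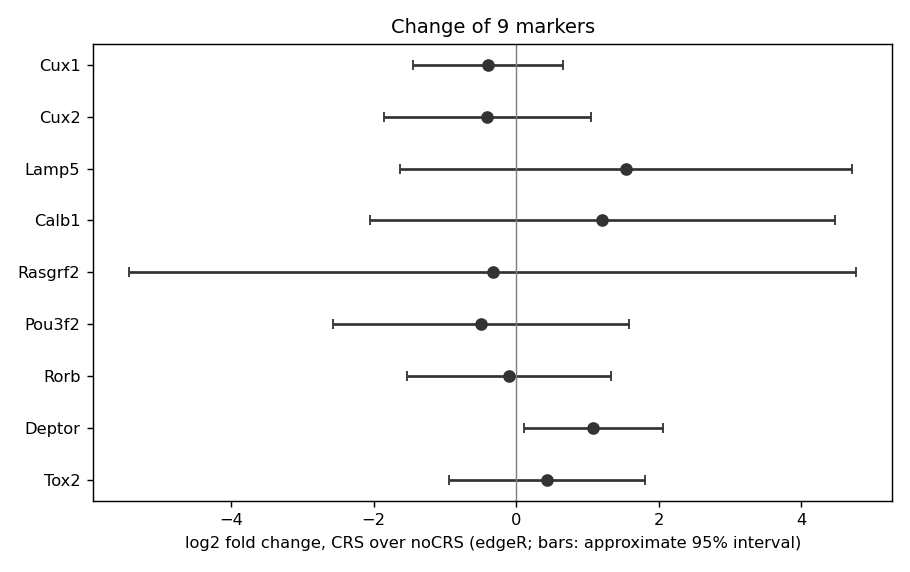
Log2 fold change of CRS over noCRS for 9 markers, with approximate 95% intervals from the edgeR fit, not adjusted for the number of genes. All intervals but that of Deptor cross 0; Tcerg1l is left out because its noCRS libraries are all at 0.

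Levels were compared between genes only per length, as CPM per kilobase of exon. Over all 7 libraries, Lamp5 (4.63), Pou3f2 (4.60), Rorb (4.17) and Calb1 (3.76) were highest, followed by Deptor (2.52), Tox2 (2.41), Cux2 (1.73) and Cux1 (1.44). Rasgrf2 (0.36) and Tcerg1l (0.20) were lowest. The order differed by group: in noCRS the per-length means of Pou3f2 (5.51) and Rorb (4.33) lay above Lamp5 (2.21), and in CRS Lamp5 (6.45) and Calb1 (4.97) were highest. Of the 9 pairs of neighbours in that order, 1 differed by more than the SD of its difference over libraries, Cux1 above Rasgrf2, which held in 7 of 7 libraries (1.08 ± 0.388 CPM per kilobase, SD, n = 7). The lengths sum the exons of every annotated transcript, which for Cux1 gives 20024 bases from 14 transcripts. The part of this length in the low per-length level of Cux1 was not tested. Pou3f2 ranked first in noCRS replicates 2 and 3 and last of the 10 in CRS replicate 1.

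**Figure D4:**
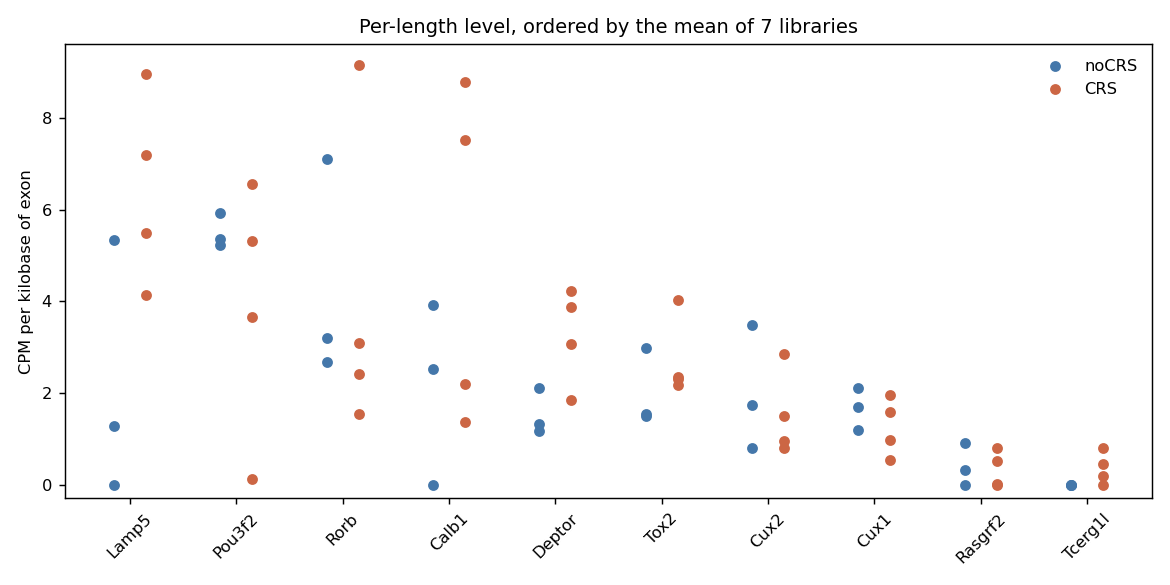
Per-length level (CPM per kilobase of exon) of the 10 markers in each noCRS (blue) and CRS (red) library, ordered by the mean of 7 libraries. The first 8 genes overlap widely, and Rasgrf2 and Tcerg1l stay below 1 in every library.

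Summed over the 7 upper-layer genes, the level was 199, 128 and 132 CPM in noCRS and 132, 93.4, 116 and 272 CPM in CRS. The 2 highest libraries were again CRS replicate 4 and noCRS replicate 1, and the other 5 lay between 93.4 and 132 CPM with both groups mixed. The 3 layer 5 genes summed to 22.0, 15.4 and 24.0 CPM in noCRS and to 27.5, 35.1, 52.9 and 42.5 CPM in CRS, without overlap. Tcerg1l, at 0 in noCRS, gave 3.08 CPM of the sum in CRS replicate 1, the lowest CRS library, so the gap rested largely on it. The sums of Deptor and Tox2 alone still did not overlap, but by a much narrower gap. Deptor made up most of the sum in level but overlapped by itself (18.7 CPM in noCRS replicate 3, 16.4 CPM in CRS replicate 1). All 10 markers were detected in CRS replicates 1, 3 and 4, and 7 to 9 in the other libraries.

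Lists of other genes of the same cells were set beside the markers. Of 22 further upper-layer markers 17 were tested, of which 2 rose and 0 fell, with 10 positive fold changes (median 0.23 in log2). The median was 1.11 without noCRS replicate 1 and 1.30 with limma-voom, which called 3 higher. DESeq2 fitted 21 of them and called 3 higher and 1 lower. Over all tested genes the share called was 2.30% with edgeR, 9.14% with DESeq2 and 3.58% with limma-voom. Nectin3, an adhesion molecule, was lower in CRS without overlap (58.6 ± 15.4 against 30.1 ± 7.31 CPM, SD, n = 3 and 4) but did not pass (edgeR adjusted p = 0.182), and was named after its values were seen. Mef2c, a transcription factor of cortical excitatory neurons, measured 18.9, 17.8 and 23.2 CPM in noCRS and 308, 77.4, 167 and 268 CPM in CRS (edgeR adjusted p = 0.0117). Lmo4, a LIM-only cofactor, rose from 46.6 ± 8.29 to 110 ± 25.4 CPM (SD, n = 3 and 4, edgeR adjusted p = 0.0411). The Mef2c call was lost without noCRS replicate 1 or 2 (adjusted p up to 0.0689), and that of Lmo4 without any library other than CRS replicate 2 (adjusted p up to 0.172), with total-count scaling (0.0787) and with no filter (0.0560). With the replicate number as a block both were lost (0.123 and 0.172). Both genes are also expressed outside the upper layers.

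Of 16 further markers of deep-layer intratelencephalic neurons 11 were tested, with a median of 0.53 in log2. The edgeR test called 0, and 3 had an unadjusted p below 0.05, beside 13.6% of all tested genes. Of these 3, Il1rapl2 and Col6a1 were at 0 in all noCRS libraries and passed the filter only through CRS, which leaves 1 of 9. DESeq2 fitted 15 of the list and called 3, beside its 9.14% over the genes with an adjusted p, and limma-voom called 0. The median was 0.33 over the 9 genes other than Il1rapl2 and Col6a1. Without CRS replicate 2, edgeR called 2. As libraries were left out, the median ran from -0.04 (without CRS replicate 1) to 5.71 (without noCRS replicate 1, with 14 tested). The genes that joined the test there were at 0 in all noCRS libraries, so 5.71 rests in part on genes that passed only through CRS. Etv1, an ETS factor of layer 5, measured 204 ± 61.8 CPM in noCRS (SD, n = 3) and 183 ± 37.4 CPM in CRS (SD, n = 4; edgeR adjusted p = 0.888). Tmem163, a zinc transporter of synaptic vesicles, measured 51.1 ± 4.68 and 49.0 ± 17.1 CPM (adjusted p = 0.974).

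For the 8 general excitatory markers, 3 rose and all 8 were fitted higher in CRS (median 5.51 in log2). Emx1 was at 0 in all noCRS libraries and passed the filter only through CRS, so it had to differ. The other 7 were all fitted higher (median 5.43). The number that rose was 6 with DESeq2, 5 with limma-voom and 1 with the replicate number as a block. The share called over all tested genes, to be set beside every count in this paragraph, was 2.30% with edgeR, 9.14% with DESeq2 and 3.58% with limma-voom. The median of the 3 layer 5 genes was 1.08 (0.76 over the 2 other than Tcerg1l, which had to differ). That of the 7 upper-layer genes was -0.33. The upper-layer median ran from -0.64 (without CRS replicate 4) to 0.27 (without noCRS replicate 1) and was 0.05 with limma-voom. The difference between lists was not tested. In the layer 5 extratelencephalic list 1 of 5 tested rose (median 0.57). Leaving out noCRS replicate 3 ended that call, as did leaving out CRS replicate 1, and the median was 1.23, 1.65 and 1.59 without noCRS replicates 1, 2 and 3 in turn. In the layer 6 corticothalamic and 6b list the call was 1 of 5 (median 0.93), of Ccn2. It was at 0 in all noCRS libraries and passed the filter only through CRS. The median of that list ran from 0.59 (without CRS replicate 4) to 2.83 (without noCRS replicate 1). In both lists a gene at 0 in all noCRS libraries joined the test when a noCRS library was left out. Of the inhibitory markers 2 of 10 rose (median 1.57), a count that was 0 without noCRS replicate 1 or 2 and 1 without CRS replicate 1, 3 or 4. Of the oligodendrocyte precursor markers 4 of 7 fell (median -1.25), and 6 of 7 by DESeq2 and by limma-voom. When any library was left out the number was 0 to 2, while the median stayed between -1.41 and -1.12.

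In 4 lists of non-neuronal cells edgeR called no member, with medians of -0.52 (10 astrocyte genes), -0.13 (7 oligodendrocyte genes), -0.54 (5 microglial genes) and 0.62 (6 endothelial and pericyte genes). At an unadjusted p below 0.05 there were 3 astrocyte genes, 1 endothelial or pericyte gene and 0 in the other 2 lists, beside 13.6% of all tested genes. Those 3 astrocyte genes were not all fitted in the same direction. DESeq2 called 1 astrocyte gene lower, 1 of 6 microglial genes higher and 1 endothelial or pericyte gene higher, beside its 9.14% over all genes, and limma-voom 0 in all 4. The oligodendrocyte precursor sum was 1912 to 2260 CPM in noCRS and 1042 to 1454 CPM in CRS, and the endothelial and pericyte sum 48.7 to 167 CPM and 125 to 523 CPM. The part of these cells in the marker levels was not tested.

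**Figure D5:**
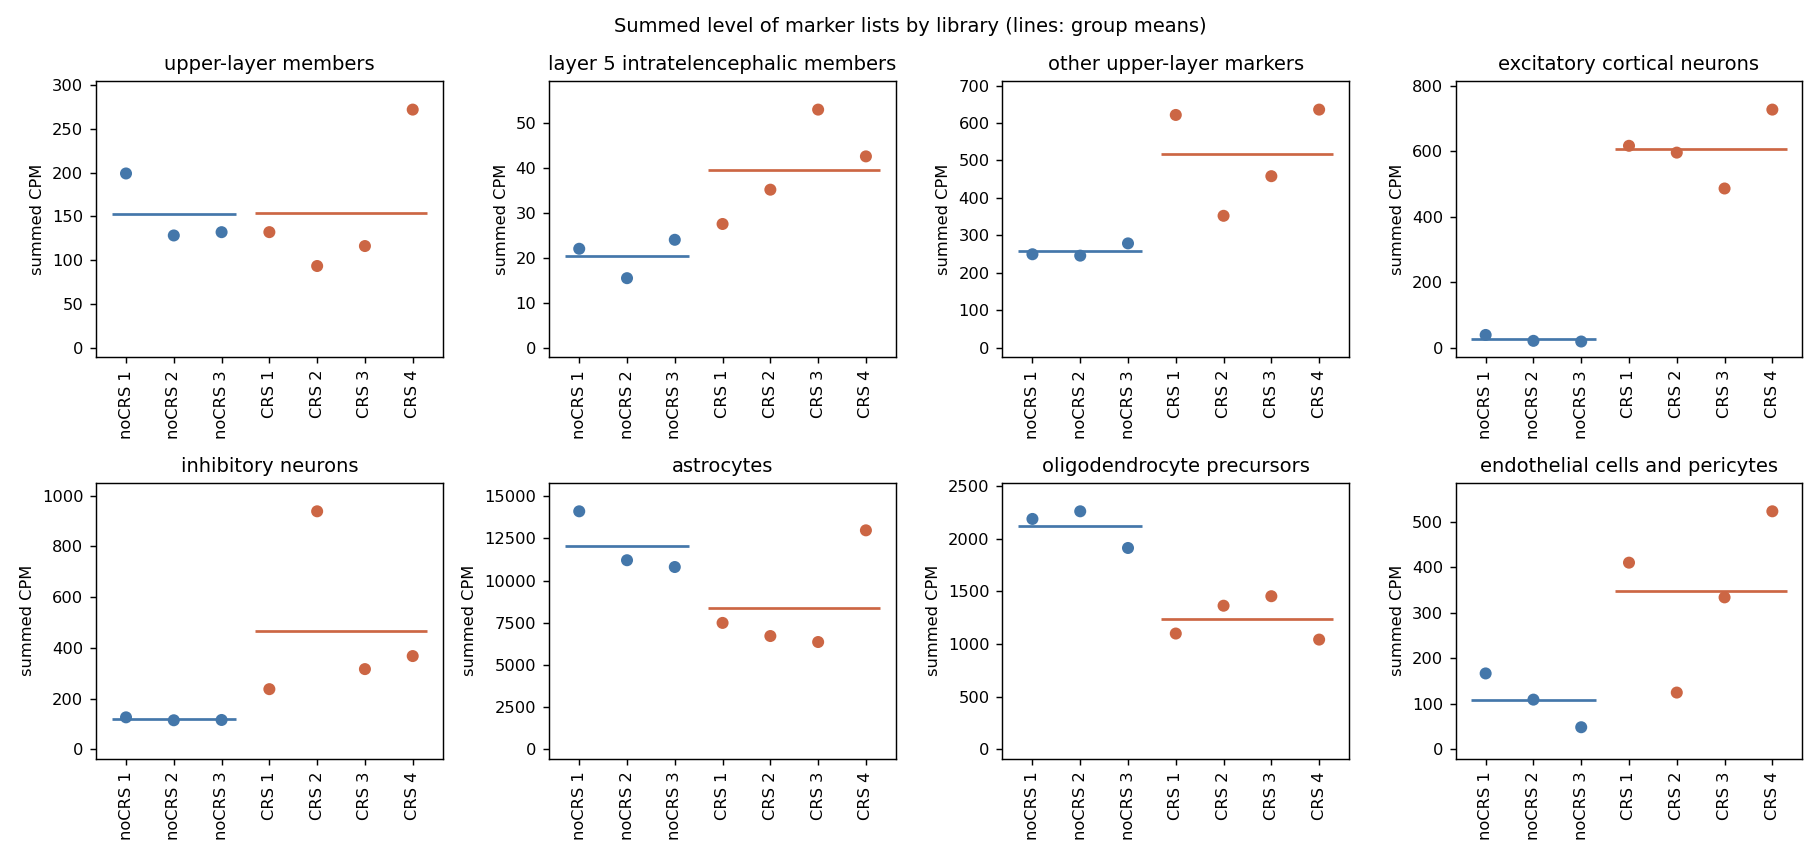
Summed level (CPM, y axis from 0) of 8 marker lists in each noCRS (blue) and CRS (red) library, with group means as lines. The upper-layer sum overlaps between the groups (128 to 199 against 93.4 to 272 CPM), while the excitatory sum does not (18.9 to 38.9 against 486 to 727 CPM).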

How the data were processed

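The authors deposited a table of raw counts per gene with exon coordinates and lengths, 1 column per library. The build was GRCm38, and featureCounts, HISAT, HISAT2, DESeq2 and FastQC are named, per the submitters' processing notes. Per the file headers, column names end as STAR output does, so the aligner was not settled. No source used here states how reads with several alignments were counted. All 10 markers had the same span in GENCODE M21.

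The whole table was tested with edgeR 4.0.16 in R 4.3.3 as CRS over noCRS without covariates. TMM factors, filterByExpr and the quasi-likelihood test were used, and p-values were adjusted by Benjamini-Hochberg over 17833 genes. CPM used TMM-scaled library sizes. Standard errors and intervals were derived from the F statistic and are approximate. The script was tested on simulated data. Alternatives were DESeq2 1.42.0, limma-voom (limma 3.58.1) with quality weights, 3 scalings, 2 filters, a threshold of 0.1, each library left out and the replicate number as a block. No pair of libraries was a duplicate (chi-square per gene of at least 93.6). Named genes were all markers and called members of the further upper-layer and intratelencephalic lists, or otherwise the 2 most abundant of those lists. Of the cell type lists, they were those a result turned on. Slc17a7, Slc32a1, Sst, Adarb2, Nectin3, Emx1, Il1rapl2, Col6a1 and Ccn2 were chosen after their values were seen. The markers and lists were chosen with earlier results of these data known.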

Additional observations from a re-analysis of the deposited data

Results flagged for a closer look

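Of 10 groups of 4 CRS values, 1 had a library far from the others by Dixon's 95% criterion. For Tox2, CRS replicate 3 measured 13.7 CPM beside 7.43 to 7.97 CPM in the other 3 libraries, and its gap to the nearest of them was 0.913 of the range. By chance about 1 group in 20 would be picked out. Without that library the Tox2 log2 fold change was 0.16 instead of 0.43.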

How the results depend on the processing

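The number of markers called was 0 in every setting other than DESeq2, where it was 1 (Tcerg1l), and the threshold of 0.1 added none. With the replicate number as a block it was 0 (12 calls over all genes instead of 410). Deviations of same-numbered libraries from their group means correlated at -0.0032 to 0.0228. Libraries with different numbers were not compared, so these values do not settle whether the numbers pair the libraries. Of 146 recomputed fold changes, 9 changed sign, all of Cux2, Rasgrf2 and Rorb. With limma-voom, Cux2 came to 0.054 and Rorb to 0.28. With 1 library left out in turn, Cux2 ran from -0.91 to 0.27, Rasgrf2 from -1.26 to 1.01 and Rorb from -0.90 to 0.48. The cause was not tested. Scaling by total counts shifted the median over all genes (log2) from -0.02 to -0.17, and the median over the markers from 0.17 to 0.02. Tcerg1l had too few counts to be tested without CRS replicate 1, 3 or 4 or at 1 CPM in 3 libraries.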
